A study of Mus musculus with 4 samples.

Results

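Interferon response genes are genes whose transcription is raised by type I interferon, by interferon gamma, or by both. The group described here holds 54 such genes, chosen by symbol from the 31053 genes of the deposited tables, and all 54 symbols were found there. They were measured in single cells of mouse T-cell progenitors that were grown from bone marrow on OP9-Dll1, a stromal cell line that presents the Notch ligand Dll1. By the rule that chose them, 7 members form a type I-like core (Isg15, Ifit1, Ifit2, Ifit3, Oas1a, Oasl2 and Mx1). Of these, Mx1 is annotated as a transcribed pseudogene in build GRCm38.p6. Another 21 form a gamma-like core of 8 guanylate-binding proteins (Gbp2 to Gbp9), 7 immunity-related GTPases (Igtp, Irgm1, Irgm2, Iigp1, Tgtp1, Tgtp2 and Ifi47) and 6 genes of peptide supply (Tap1, Tap2, Tapbp, Psmb8, Psmb9 and Psmb10). The other members are 13 genes placed with the type I response, 8 placed with antigen presentation and the gamma response, and 5 placed with either.

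Perturbed and control cultures were pooled in 2 experiments, each with 1 mRNA library and 1 hashtag library. For overexpression, progenitors from B6.Bcl2 transgenic mice aged 8 to 10 weeks received MSCV-Runx1-mCherry or MSCV-empty-mCherry on day 2 and were harvested on days 4 and 6. For the double knockout, progenitors from B6.Cas9;Bcl2 transgenic mice received E42-gRunx1-humanNGFR together with E42-gRunx3-mTurquoise on day 2, or the same backbones with guides to luciferase, and were harvested on days 5 and 8. All cells, controls included, carry the Bcl2 survival transgene, saw a retroviral vector, and were grown with IL-7 and Flt3-ligand at 10 ng/ml each. They were sorted as lineage-negative, CD45+ and positive for the vector markers. Experiment 1 covers culture days 4 to 5 and experiment 2 covers days 4 to 8. Each culture carried 1 of 8 hashtag antibodies, but which hashtag marks which vector, day or replicate is not given in the sources used here. The 8 hashtags of an experiment are therefore described as 8 cultures of unknown condition: each hashtag's value is given, no condition is read from expression, and no p-value is possible. Intervals in square brackets are exact 95% intervals that cover counting error only.

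Experiment 1 gave 8797 cells with a hashtag call, 691 to 1291 per hashtag, and 14502385 to 38067298 unique molecular identifiers (UMIs, counted molecules) per hashtag. In experiment 2, 8335 cells were called, 855 to 1312 per hashtag, with 22272716 to 42684236 UMIs per hashtag. Median UMIs per cell ranged over hashtags from 18057.5 to 29606 and from 19543 to 31961. The 2 experiments share 39 cell barcodes, 0.391% and 0.369% of their barcodes, and were analysed apart. All 9 early T progenitor markers looked for (Kit, Il2ra, Cd44, Il7r, Tcf7, Gata3, Lck, Notch1 and Cd3g) were counted in every hashtag of both experiments. Markers of other lineages were present as well: 10 or more UMIs of a granulocyte or monocyte list were found in 20.0% and 29.5% of the cells of experiments 1 and 2, of a dendritic list in 18.7% and 31.4%, of a mast or basophil list in 14.8% and 12.9%, and of a stromal list in 0.193% and 2.63%. Levels are given as CPM, a gene's UMIs scaled to 1000000 UMIs of the hashtag, and in such sums more responding cells and more RNA per cell cannot be told apart without looking at single cells.

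Type I interferons signal through the receptor Ifnar1/Ifnar2 and the kinases Jak1 and Tyk2 to a complex that contains Stat2 and Irf9 and binds the interferon-stimulated response element (ISRE). Interferon gamma signals through Ifngr1/Ifngr2 and Jak1 and Jak2 to the gamma-activated sequence (GAS), and it raises Irf1, which in turn acts through ISRE-type elements. The products of the responding genes block viral replication, attack intracellular pathogens and widen the display of peptides on MHC class I, and T-lineage and stromal cells alike can respond.

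Sequence upstream of the members is shown first, because these elements are the textbook link between the interferon receptors and the members described below. A RefSeq promoter window of build GRCm38.p6 was at hand for 41 of the 54 members. Within the 250 bases before the transcript start used there, an ISRE-type match (GAAA, any 2 bases, then GAAA again, on either strand) was found in 19 of 41 members (46.3%) and in 821 of 27025 genes (3.04%). A GAS match (TTCNNNGAA, which reads alike on both strands) was found in 12 of 41 members (29.3%) and in 7.18% of all genes. Of the 15 gamma-like GTPases, 10 had a window and 9 of those held an ISRE match. At least 1 of the 2 matches was found in 23 of 41 members (56.1%) and in 9.83% of all genes. Psmb8 had a GAS match only, and the members with neither included Ifi47, Irf7, Tap1 and H2-D1. For 8 of the 41 members, among them Ifit3, H2-K1 and Gbp3, the start used lies inside the gene's annotated span; of the other 33, 16 held an ISRE match and 10 a GAS match. A match describes letters and is not evidence of binding. The 5 windows below belong to members with large differences between hashtags, are written 5′ to 3′ toward the gene, and carry their matches in capitals.
Gbp2, chr3:142620413-142620662, plus strand: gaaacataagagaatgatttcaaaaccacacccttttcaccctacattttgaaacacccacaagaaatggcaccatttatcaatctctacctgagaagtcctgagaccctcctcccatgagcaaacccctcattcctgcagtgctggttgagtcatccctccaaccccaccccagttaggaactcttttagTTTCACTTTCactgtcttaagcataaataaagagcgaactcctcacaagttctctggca
Gbp5, chr3:142496684-142496933, plus strand: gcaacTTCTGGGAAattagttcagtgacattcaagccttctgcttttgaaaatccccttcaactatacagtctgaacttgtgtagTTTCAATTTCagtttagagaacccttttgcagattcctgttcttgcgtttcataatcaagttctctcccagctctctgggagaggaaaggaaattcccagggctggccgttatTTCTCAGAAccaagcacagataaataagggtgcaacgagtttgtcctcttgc
Tgtp1, chr11:48992247-48992496, minus strand: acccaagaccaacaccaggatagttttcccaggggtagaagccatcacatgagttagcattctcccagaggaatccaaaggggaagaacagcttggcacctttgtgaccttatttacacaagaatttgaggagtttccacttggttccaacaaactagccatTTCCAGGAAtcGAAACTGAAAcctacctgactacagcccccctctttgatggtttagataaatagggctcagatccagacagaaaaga
Ifit1, chr19:34640639-34640888, plus strand: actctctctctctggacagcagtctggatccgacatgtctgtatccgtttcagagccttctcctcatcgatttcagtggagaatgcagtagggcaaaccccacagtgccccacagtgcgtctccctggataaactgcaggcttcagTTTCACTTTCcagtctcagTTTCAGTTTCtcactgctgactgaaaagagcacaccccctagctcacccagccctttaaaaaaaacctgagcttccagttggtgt
Cxcl10, chr5:92348890-92349139, minus strand: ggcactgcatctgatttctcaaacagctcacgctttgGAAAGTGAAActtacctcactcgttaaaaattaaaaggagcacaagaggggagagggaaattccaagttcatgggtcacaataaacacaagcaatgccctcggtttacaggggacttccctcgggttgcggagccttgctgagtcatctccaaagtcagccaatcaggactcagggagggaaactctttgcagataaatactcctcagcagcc

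Counted from the first base of the match to the start, the ISRE match of Gbp2 lay 59 bases upstream, and that of Gbp5 lay at 165 bases with GAS matches at 245 and 52. Tgtp1 carried both elements in one block, a GAS match at 88 bases and an ISRE match at 77. That block, a GAS match followed after 2 bases by an ISRE match, was found in 4 members, Tgtp1, Tgtp2, Igtp and Irgm2, and in 5 of all 27025 genes. Ifit1 held 2 ISRE matches, at 104 and 85 bases, and no GAS match. Cxcl10 held 1 ISRE match at 213 bases.

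Most members differed between the cultures of an experiment by far more than most genes did. A gene was assessed when its mean was at least 5 CPM with at least 10 UMIs in its lowest hashtag, and it was counted when its highest hashtag was at least 2-fold above its lowest. Among the cultures of experiment 1, 31 of 47 assessed members reached 2-fold (66.0%, against 10.7% of all 8767 assessed genes) and 14 reached 4-fold (against 2.93%). Among those of experiment 2, 44 of 49 did so (89.8%, against 17.2% of 8766 genes) and 27 reached 4-fold (against 6.41%). The median highest-to-lowest ratio of the members was 2.83 in experiment 1 and 4.79 in experiment 2, where the medians over all genes were 1.31 and 1.37. The members left unassessed for low counts were 7 in experiment 1 and 5 in experiment 2, mostly genes of the type I response such as Ifit2 and Mx1, and the chemokine gene Cxcl9.

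The members shared their high hashtags. Hashtag 8 of experiment 1 was highest for 41 of 47 members, against 10.0% of all genes. Hashtag 8 holds the fewest cells, 691, and without it 24 of 46 members were past 2-fold, against 9.90% of all genes. Hashtag 6 of experiment 2 was highest for 30 of 49 members, against 12.1% of all genes, and hashtag 1 was lowest for 31, against 14.6%. Hashtags 3, 4, 5 and 6 of experiment 2 together held the 4 highest values for 39 of 49 members, against 2.00% of all genes. That block of 4 was picked after its values had been seen, and so was the pairing of hashtags 6 and 8 in experiment 1, which were the top 2 for 28 of 47 members, against 2.63% of all genes. Markers of dendritic cells were also highest in these hashtags, but the match was partial. Their summed level was 754 and 642 CPM in hashtags 6 and 8 of experiment 1 against 125 to 429 CPM in the other 6. In experiment 2 it was 1333 to 1813 CPM in hashtags 3 to 6 against 235 to 1284 CPM in the rest. Next in line were hashtags 3 and 4 of experiment 1, at 429 and 407 CPM, and hashtag 8 of experiment 2, at 1284 CPM. Those hashtags had only 378, 354 and 325 CPM of the 15 gamma-like GTPases. The dendritic list includes the MHC class II genes H2-Aa and H2-Ab1, so its sum is not a count of dendritic cells. Whether more dendritic cells or more class II RNA per cell raised it was not tested. Of the list, Klk1 had no UMI in experiment 1, and 4 of the 8 markers had under 10 UMIs in some hashtag in each experiment. Values in cells with under 10 UMIs of every other-lineage list are given with the single-cell results.

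**Figure D1:**
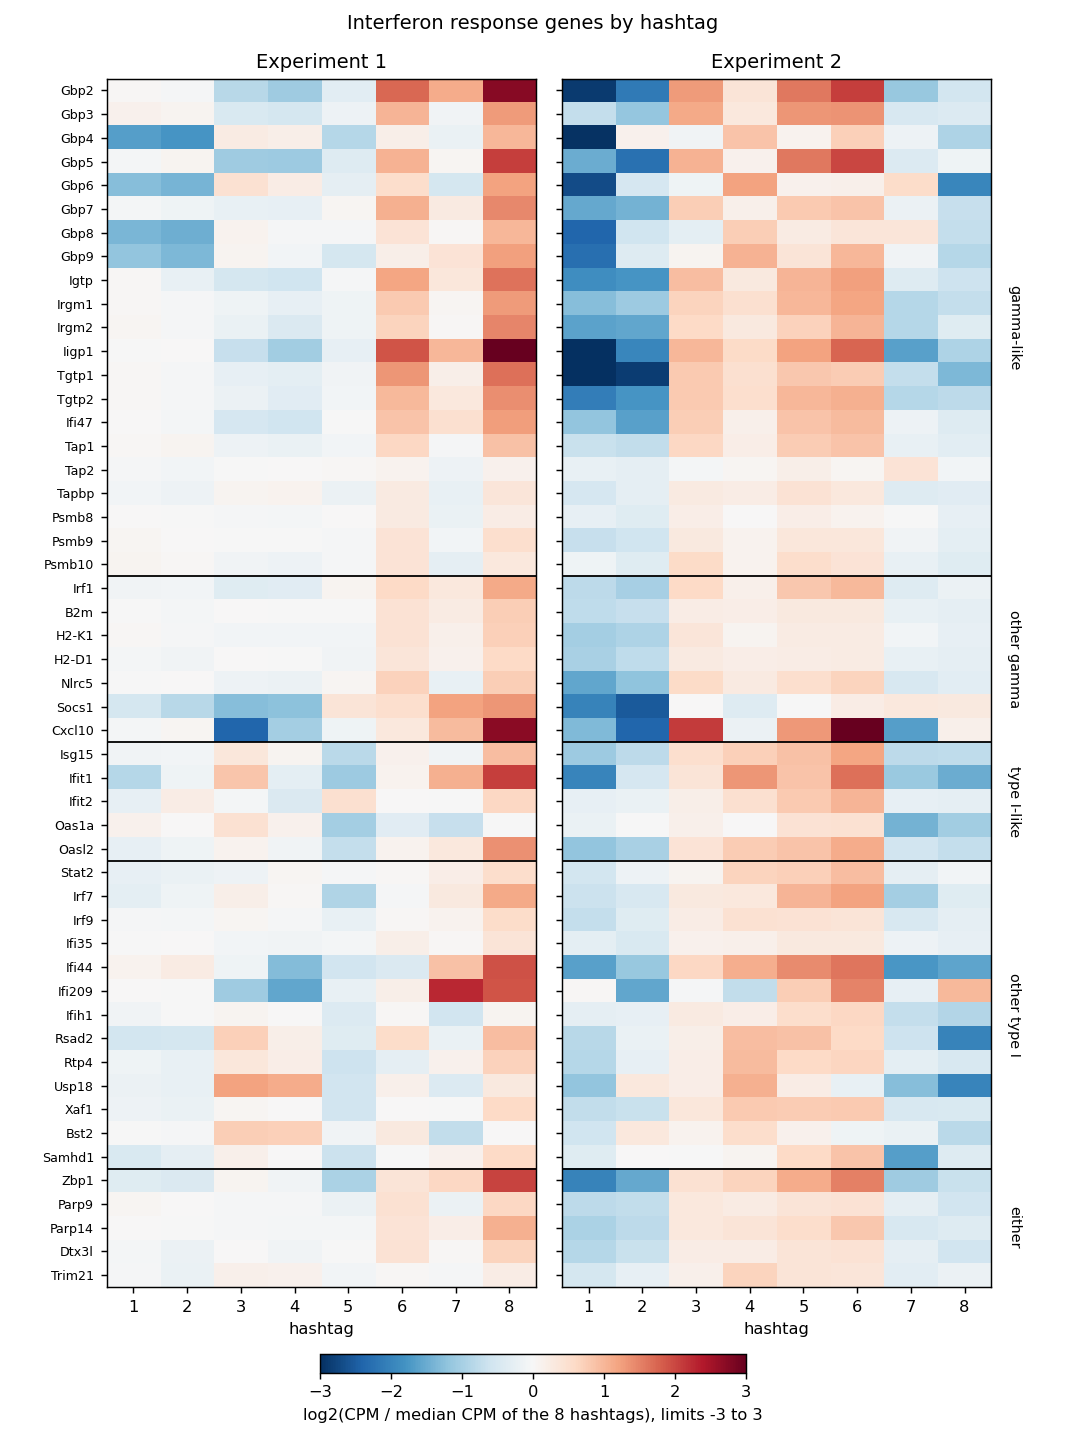
Level of 51 members in the 8 hashtags of each experiment, as the log2 of CPM over the median of the 8 hashtags (colour), with black lines between the gene groups. The 3 members with under 10 UMIs in a hashtag are left out. Hashtag 8 of experiment 1 and hashtags 3 to 6 of experiment 2 stand out in red over most groups, the peptide supply genes less so, and Gbp4, Gbp6, Gbp8 and Gbp9 break the pattern of the other Gbp genes in both experiments.

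The guanylate-binding proteins, interferon-induced GTPases that assemble on the membranes of intracellular pathogens and their vacuoles, differed most as a family. All 8 were past 2-fold in both experiments. Gbp2 (chr3:142620663-142638008) was at 37.1, 35.1, 20.1, 17.4, 28.8, 119, 78.6 and 239.8 CPM in hashtags 1 to 8 of experiment 1, a 13.8-fold span [12.6 to 15.1]. Its level in hashtag 8 was about double that of the next, hashtag 6, and hashtags 3 and 4 were lowest. Levels in experiment 2 were 6.33, 10.6, 113, 61.3, 139.8, 197, 21.0 and 31.8 CPM, a 31.2-fold span [27.2 to 35.9], with hashtags 3 to 6 above all others. Without hashtag 8 the span in experiment 1 was 6.86-fold, and without hashtag 1 that in experiment 2 was 18.6-fold.

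Gbp5 (chr3:142496934-142522344), which also promotes inflammasome assembly, followed Gbp2. Its levels in experiment 1 were 10.9, 12, 5.42, 5.33, 8.69, 23.3, 11.8 and 47.4 CPM, a span of 8.91-fold [7.51 to 10.6], or 4.38-fold without hashtag 8. Those in experiment 2 were 3.56, 2.12, 20.5, 10.8, 29.8, 40.1, 7.48 and 9.11 CPM, a span of 18.9-fold [14.6 to 25], or 11.3-fold without hashtag 2. The same hashtags were high as for Gbp2, and the hashtags at the bottom were 3 and 4 in experiment 1 and 1 and 2 in experiment 2. Gbp3 and Gbp7, their neighbours on chromosome 3, spanned 3.51-fold and 3.18-fold in experiment 1 and 5.68-fold and 5.20-fold in experiment 2, with the same highest hashtags.

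The Gbp genes of chromosome 5 had another order. Gbp4 (chr5:105115767-105139586) was at 11.5, 10.7, 42.9, 40.8, 20.0, 40.6, 31.8 and 71.7 CPM in experiment 1, so hashtags 3 and 4 came right after hashtag 8 and not at the bottom (6.72-fold [5.98 to 7.57], 4.02-fold without hashtag 8). In experiment 2 it was at 3.94, 33.2, 28.3, 55.5, 32.8, 50.5, 27.6 and 16.2 CPM (14.1-fold [11.8 to 16.9]). Hashtag 2, near the bottom for Gbp2 and Gbp5, was here close to hashtags 3 and 5, and hashtag 1 alone was far below the rest: without it the span was 3.43-fold.

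Gbp6 (chr5:105270702-105295871) was at 2.76, 2.54, 9.20, 7.85, 5.57, 9.64, 4.64 and 15.6 CPM in experiment 1 (6.14-fold [4.80 to 7.90], 3.8-fold without hashtag 8) and at 1.14, 5.15, 6.61, 16.8, 7.94, 8.04, 10.7 and 1.89 CPM in experiment 2 (14.7-fold [10.6 to 21.0], 8.89-fold without hashtag 1). Hashtag 4 of experiment 2 was its highest, as it was for Gbp4, Gbp8 and Gbp9. Gbp9 was at 3.86, 3.49, 9.36, 8.29, 6.11, 10.0, 11.7 and 20.8 CPM in experiment 1 (5.94-fold [4.82 to 7.37], 3.34-fold without hashtag 8), again lowest in hashtags 1 and 2.

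The difference between the 2 clusters shows in their sums. The chromosome 3 genes (Gbp2, Gbp3, Gbp5 and Gbp7, chr3:142496934-142638008) summed to 163, 157, 119, 114, 152, 381, 218 and 587 CPM in experiment 1, and the chromosome 5 genes (Gbp4, Gbp6, Gbp8 and Gbp9, chr5:105012513-105295871) to 24.4, 22.5, 78.9, 72.7, 47.4, 81.6, 64.6 and 140.1 CPM. The ratio of the second sum to the first was 0.150 and 0.143 in hashtags 1 and 2 but 0.663 and 0.636 in hashtags 3 and 4, with 0.312, 0.214, 0.296 and 0.239 in hashtags 5 to 8. In experiment 2 the ratios were 0.208, 1.11, 0.191, 0.659, 0.208, 0.231, 0.635 and 0.327, so hashtags 2, 4 and 7 stood above the other 5. The ratio thus spanned 4.63-fold and 5.83-fold, and 3.45-fold in experiment 2 without hashtag 2. The ratios were also taken in cells with under 10 UMIs of every other-lineage marker list. There they were 0.810 and 0.815 in hashtags 3 and 4 of experiment 1 and at most 0.343 in its other hashtags. In hashtags 2, 4 and 7 of experiment 2 they were 2.08, 1.32 and 0.778, and the rest lay between 0.264 and 0.406. This split was looked for after the values of single Gbp genes had been seen. The Gbp genes are close paralogs, and how the authors' counting divided reads that fit several of them is not given in the sources used here.

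**Figure D2:**
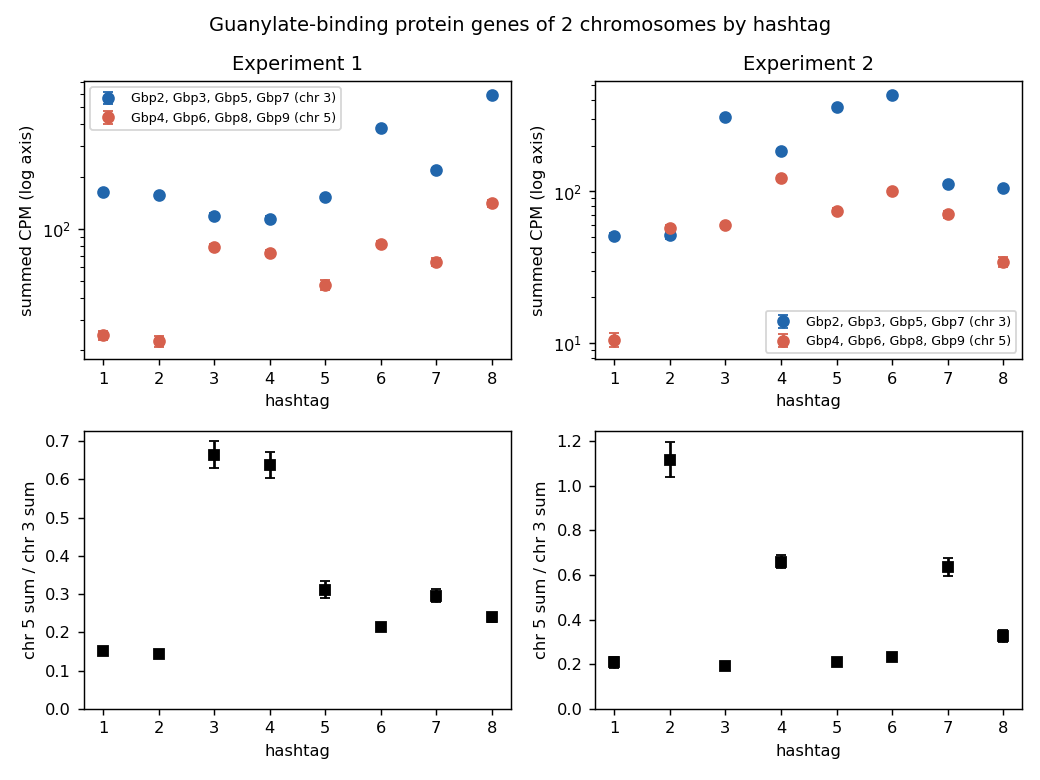
Summed CPM of the Gbp genes of chromosome 3 (blue) and chromosome 5 (red) by hashtag (top, log axis), and the chromosome 5 sum over the chromosome 3 sum (bottom), with exact 95% intervals for counting error. The ratio is above 0.6 in hashtags 3 and 4 of experiment 1 and in hashtags 2, 4 and 7 of experiment 2.

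The immunity-related GTPases, which disrupt parasite vacuoles (Iigp1, Tgtp1, Tgtp2 and Ifi47) or regulate their relatives (Igtp, Irgm1 and Irgm2), went with the chromosome 3 Gbp genes. All 7 were past 2-fold in both experiments, all 7 were highest in hashtag 8 and lowest in hashtag 4 of experiment 1, and all 7 had hashtags 3 to 6 as their 4 highest in experiment 2. Iigp1, on chromosome 18, was at 20.8, 20.8, 12.9, 10.1, 17.4, 76.4, 41.2 and 177 CPM in experiment 1 (17.5-fold [15.6 to 19.8], 7.56-fold without hashtag 8). In experiment 2 it was at 4.93, 11.8, 91.6, 67.7, 106, 153, 14.8 and 24.0 CPM (31-fold [26.6 to 36.4], 13-fold without hashtag 1). Of its UMIs in experiment 2, 40.3% were in the 219 cells with stromal markers, and without those cells the span was 77.1-fold, with hashtag 6 again highest.

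Tgtp1 (chr11:48985329-48992246), of the same GTPase family, was at 1.08, 1.27, 15.6, 12.7, 16.1, 15.5, 5.57 and 3.59 CPM in experiment 2 (14.9-fold [10.7 to 21.5]). Hashtags 3, 5 and 6 were within 1 CPM of one another and hashtags 1 and 2 were lowest. The remaining members of the family, Tgtp2, Igtp, Irgm1, Irgm2 and Ifi47, spanned 2.87-fold to 4.65-fold in experiment 1 and 5.52-fold to 8.75-fold in experiment 2. Tgtp1 and Tgtp2 are near-identical copies, so their separate values are uncertain.

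Summed over all 15 GTPases, the level was 429, 407, 378, 354, 428, 961, 599 and 1481 CPM in experiment 1, a span of 4.19-fold [4.09 to 4.28], and 2.72-fold without hashtag 8. In experiment 2 the sums were 151, 198, 866, 659, 985, 1181, 376 and 325 CPM, a span of 7.81-fold [7.59 to 8.05]. Hashtags 1 to 5 of experiment 1 lay within 429 and 354 CPM, while hashtags 6, 7 and 8 were above them. Experiment 2 fell into 3 levels: hashtags 1 and 2 at the bottom, 7 and 8 next, and 3 to 6 at the top.

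The peptide supply genes, which build the immunoproteasome (Psmb8, Psmb9 and Psmb10) and carry peptides to MHC class I (Tap1, Tap2 and Tapbp), differed much less. Only Tap1, a subunit of the peptide transporter, was past 2-fold in experiment 1 (2.13-fold), and only Tap1 (3.02-fold) and Psmb9 (2.03-fold) were past it in experiment 2. Psmb8 (chr17:34198195-34201454) was at 1019, 1008, 992, 979, 1017, 1211, 878 and 1178 CPM in experiment 1 (1.38-fold [1.36 to 1.40]) and at 948, 877, 1288, 1134, 1295, 1221, 1119 and 944 CPM in experiment 2 (1.48-fold [1.45 to 1.5]). It holds 41.3% and 43.4% of the UMIs of the gamma-like core, so the summed core spanned only 1.77-fold and 2.09-fold.

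The class I genes were among the members with the highest levels and differed in the same direction, by less. B2m (chr2:122147687-122153082), the light chain of MHC class I, was at 845, 822, 852, 848, 845, 1146, 1004 and 1413 CPM in experiment 1 (1.72-fold [1.69 to 1.75]) and at 518, 545, 1034, 1003, 1082, 1083, 754 and 733 CPM in experiment 2 (2.09-fold [2.05 to 2.13]). H2-K1 (chr17:33996012-34000619), a class I heavy chain, was at 864, 829.6, 801, 797, 796, 1138, 936 and 1393 CPM (1.75-fold [1.71 to 1.79]) and at 463, 492, 1199, 986, 1104, 1099.8, 875 and 784 CPM (2.59-fold [2.55 to 2.64]). H2-D1 (chr17:35263094-35267497), the other heavy chain, was at 633, 608, 669, 650.3, 618, 856, 716 and 1002 CPM (1.65-fold [1.61 to 1.68]) and at 356, 408, 833, 798, 812, 820.4, 591 and 578 CPM (2.34-fold [2.29 to 2.39]). In all 3 genes the top hashtags were 6 and 8 in experiment 1 and 3 to 6 in experiment 2, and hashtags 1 and 2 of experiment 2 were lowest. Nlrc5, the transactivator of class I genes, spanned 1.95-fold and 4.64-fold, and Irf1, a transcription factor that acts on many of these genes, 2.83-fold and 3.88-fold.

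Socs1 (chr16:10783808-10785536), an inhibitor of the Jak kinases that cytokines of many kinds induce, had an order of its own. It was at 31.9, 25.6, 18.8, 19.6, 59.9, 65.1, 107 and 114 CPM in experiment 1 (6.08-fold [5.52 to 6.70]), so hashtags 5 to 8 were all above hashtags 1 to 4. Its levels in experiment 2 spanned 7.07-fold, and its highest hashtags there were 7 and 8, at 81.6 and 79.9 CPM, just above hashtag 6 at 77.1 CPM. Hashtags 7 and 8 were in the middle for the GTPases.

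The chemokines Cxcl9 and Cxcl10, which attract T cells through Cxcr3, were rare. Cxcl10 (chr5:92346638-92348889) was at 7.83, 8.41, 1.55, 3.99, 7.47, 10.1, 15.6 and 53.1 CPM in experiment 1 (34.3-fold [25.4 to 47.2], 10.1-fold without hashtag 8) and at 1.75, 0.847, 18.7, 3.86, 10.7, 50.4, 1.40 and 4.89 CPM in experiment 2 (59.5-fold [39.8 to 93.2], 22.0-fold without hashtag 6). In both experiments 1 hashtag stood far above the rest, and few cells made the signal: 535 of 8797 cells and 541 of 8335 cells had a Cxcl10 UMI, and the 1% of cells with most held 68.0% and 68.9% of the UMIs. In hashtag 8 of experiment 1, 5 cells held 52.1% of its 770 Cxcl10 UMIs. In hashtag 6 of experiment 2, 5 cells held 26.9% of 1348. The lowest hashtag of experiment 2, hashtag 2, had 24 UMIs in 10 cells. The intervals do not cover this unevenness between cells. Cells with dendritic markers held 47.2% and 75% of the Cxcl10 UMIs, and 87.2% and 90.2% of those of Cxcl9, which had 47 and 592 UMIs in all. A cell can carry markers of more than 1 list, so these shares overlap with others. Cells with granulocyte or monocyte markers held 25.7% and 44.0% of the Cxcl10 UMIs and 59.6% and 27.0% of those of Cxcl9. Cells with stromal markers held 0.300% and 14.6% of the Cxcl10 UMIs and 19.1% and 28.5% of those of Cxcl9. Hashtag 6 of experiment 2 also had the most granulocyte and monocyte marker UMIs, 12378 CPM against 219 to 8024 CPM in the others. Its Cxcl10 level was 18.3 CPM, still the highest of the 8, once all cells with markers of another lineage were removed.

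The type I-like core was lower in level and differed in a partly different order. Its sum was 78.2, 81.1, 107, 87.3, 50.5, 91.5, 85.3 and 173 CPM in hashtags 1 to 8 of experiment 1 (3.44-fold [3.20 to 3.70], 2.11-fold without hashtag 8), and Isg15 alone gave 72.5% of these UMIs. Hashtag 6, which was second for the GTPases, was here below hashtag 3, and hashtag 5 was lowest. In experiment 2 the sums were 52.7, 66.4, 147, 184, 198, 252, 61.4 and 61.5 CPM (4.77-fold [4.53 to 5.03], 3.75-fold without hashtag 6). Hashtags 3 to 6 were again the top 4, while hashtags 7 and 8 were level with hashtags 1 and 2 and not above them as they were for the GTPases.

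**Figure D3:**
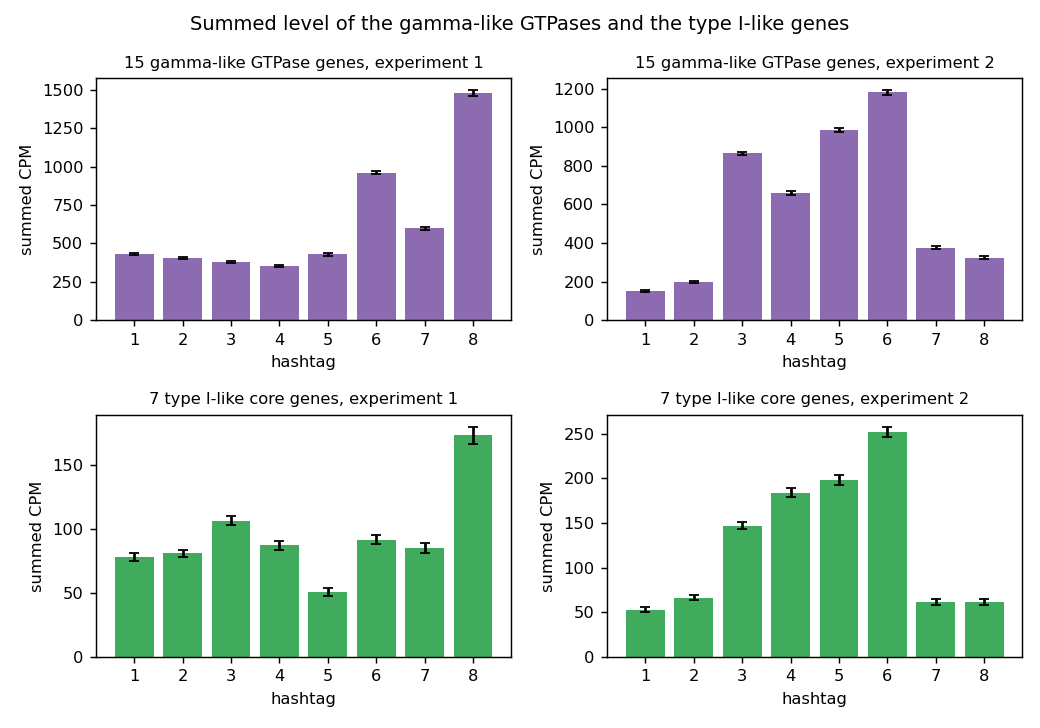
Summed CPM of the 15 gamma-like GTPase genes (top) and of the 7 type I-like core genes (bottom) in the 8 hashtags of each experiment; error bars are exact 95% Poisson intervals for counting error. In experiment 2 the GTPases stand at 376 and 325 CPM in hashtags 7 and 8 against 151 and 198 CPM in hashtags 1 and 2, whereas the type I-like genes are between 52.7 and 66.4 CPM in all 4.

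Among single type I-like genes, Isg15, a ubiquitin-like modifier, spanned 3.33-fold in experiment 1 (2.04-fold without hashtag 5) and 4.79-fold in experiment 2. Oasl2, a relative of the oligoadenylate synthetases that sense double-stranded RNA, spanned 4.27-fold (2.03-fold without hashtag 8) and 4.88-fold. The Ifit genes encode proteins that bind foreign RNA. Ifit1 (chr19:34640889-34650009) was at 1.95, 5.44, 10.1, 19.5, 14.0, 24.3, 3.61 and 2.78 CPM in experiment 2 (12.4-fold [9.67 to 16.3]), and Ifit3 (chr19:34583119-34588982) at 1.37, 1.69, 5.67, 12.5, 10.1, 19.4, 2.42 and 1.71 CPM (14.1-fold [10.5 to 19.5]). For both genes hashtags 6 and 4 were highest. These values rest on few cells, since the cells with stromal markers held 75.5% of the Ifit1 UMIs and 81.9% of the Ifit3 UMIs. The marker lists overlap: of the 251 cells with B-lineage markers, which held 74.8% of the Ifit3 UMIs, 162 also had stromal markers, as did 113 of the cells with dendritic markers, which held 71.8%. Outside the stromal-marker cells those shares were 0.0638% and 11.3%. Without those cells Ifit1 was at 0.56 to 5.44 CPM and Ifit3 at 0.26 to 2.83 CPM, with hashtag 5 highest for both, and Ifit3 no longer had 10 UMIs in every hashtag.

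The 13 other genes of the type I response held both patterns. Ifi209 (chr1:173630859-173647928), a DNA sensor of the Ifi200 family, was at 7.75, 7.72, 3.67, 2.65, 6.64, 8.72, 37.4 and 28.6 CPM in experiment 1 (14.1-fold [11.3 to 17.9]), the single member highest in hashtag 7. Bst2 (chr8:71534255-71537472), which tethers budding virus to the cell surface, was at 298, 291, 499, 496, 281, 371, 181 and 302 CPM in experiment 1 (2.76-fold [2.66 to 2.86], but 1.78-fold without hashtag 7) and at 229, 425, 371, 499, 377, 316, 298 and 196 CPM in experiment 2 (2.54-fold [2.46 to 2.63]). Its highest hashtags were 3 and 4 in experiment 1 and 4 and 2 in experiment 2, and hashtag 7 of experiment 1 was lowest. Usp18, which removes Isg15 from proteins and damps the type I receptor, was highest in the same hashtags of experiment 1, at 18.2 and 17.1 CPM in hashtags 3 and 4, where the others had at most 9.58 CPM. Its levels in experiment 2 were 4.78, 13.6, 12.4, 22.5, 12.6, 9.20, 4.46 and 2.74 CPM, so hashtag 4 led (8.23-fold, or 4.95-fold without it) and hashtags 2, 3 and 5 lay close together below it. The other assessed genes of this group, among them Irf7, Irf9, Stat2, Rtp4, Xaf1 and Samhd1, spanned 1.41-fold to 4.17-fold in experiment 1 and 1.69-fold to 5.72-fold in experiment 2. The widest were Irf7 in experiment 1, 2.30-fold without hashtag 8, and Samhd1 in experiment 2, 2.37-fold without hashtag 7. Ifi209 spanned 8.19-fold in experiment 2 (4.64-fold without hashtag 2), with hashtags 6 and 8 on top.

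Of the 5 members that respond to either interferon, Zbp1 differed most. Zbp1 (chr2:173206612-173218959), a sensor of left-handed nucleic acid that can trigger cell death, was at 8.54, 8.11, 11.7, 10.2, 5.67, 14.2, 16.9 and 44.3 CPM in experiment 1 (7.81-fold [6.40 to 9.61], 2.98-fold without hashtag 8) and at 4.40, 6.07, 24.2, 28.0, 38.7, 50.5, 8.50 and 11.2 CPM in experiment 2 (11.5-fold [9.68 to 13.7]). It was thus high in hashtag 8 of experiment 1 and hashtags 3 to 6 of experiment 2. Parp14, Parp9, Dtx3l and Trim21, which modify proteins with ADP-ribose or ubiquitin, spanned 1.33-fold to 2.19-fold and 2.28-fold to 3.41-fold, highest in hashtag 8 of experiment 1 and in hashtag 6, or for Trim21 hashtag 4, of experiment 2. Parp14 alone of these was past 2-fold in experiment 1, and was at 1.40-fold without hashtag 8.

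The receptors, kinases and further targets of the pathway were read from a separate list of 41 genes. Of its assessed genes, 15 of 33 were past 2-fold in experiment 1, against 10.7% of all genes, and 22 of 35 in experiment 2, against 17.2%. Ly6a, the surface antigen Sca-1 and an interferon target, spanned 8.60-fold (3.93-fold without hashtag 8) and 13.8-fold (8.77-fold without hashtag 2), highest in hashtag 8 of experiment 1 and hashtag 6 of experiment 2. Among the receptor chains, Ifnar1 and Ifnar2 stayed within 1.80-fold in both experiments, whereas Ifngr2 spanned 7.38-fold and 4.18-fold: it was lowest in hashtags 3 and 4 of experiment 1, at 4.88 and 3.8 CPM. Jak1, the kinase shared by both receptors, was highest in hashtags 3 and 4 of experiment 1 and 2 and 4 of experiment 2, at 307, 323, 259 and 262 CPM against at most 181 CPM elsewhere, and the helicase gene Dhx58 had the same high hashtags (3.96-fold, and 5.36-fold or 2.94-fold without hashtag 4).

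Of the interferon genes, Ifng, Ifnb1 and Ifna4 were looked at. Ifng had 13 UMIs in the 8797 cells of experiment 1, while no Ifna4 UMI was counted in either experiment and Ifnb1 had 3 UMIs, all in experiment 2. In experiment 2, Ifng was at 0.146, 0.0353, 6.54, 10.1, 20.4, 0.374, 0.127 and 19.7 CPM, and 98.0% of its 1583 UMIs were in 172 cells with markers of mature T cells. The 282 cells with NK markers held 61.0% of the same UMIs, so much of the Ifng was in cells with both kinds of markers. Hashtags 3, 4 and 5, with Ifng, were among the 4 highest for the GTPases. Hashtag 8 had nearly as much Ifng as hashtag 5 but only 325 CPM of the GTPases, and hashtag 6 had the highest GTPase level with 10 Ifng UMIs. A single cell gave 558 of the 583 Ifng UMIs of hashtag 5 and another gave 430 of the 439 of hashtag 8.

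The differences between hashtags were seen in the median cell and not only in the sums. After each cell was thinned to 10000 UMIs, the median cell had 3, 3, 3, 3, 3, 8, 4 and 12 UMIs of the 15 GTPases in hashtags 1 to 8 of experiment 1, and 1, 1, 7, 4, 8, 9, 3 and 2 in experiment 2. From 42 to 212 cells per hashtag were left out of experiment 1 for lack of depth, and 34 to 177 of experiment 2. In hashtag 8 of experiment 1 the lower quartile, 7 UMIs, was above the upper quartile of hashtags 1 to 5, at 5 to 6. The 5% of cells with the most GTPase UMIs held 16.0% to 24.8% of them in experiment 1 and 18% to 29.1% in experiment 2, against 29.3% to 39.8% and 34.8% to 46.5% for the type I-like core, whose UMIs are fewer. Across the cells of a hashtag, the Pearson correlation of the 2 thinned sums was 0.21 to 0.45 in experiment 1 and 0.27 to 0.59 in experiment 2, a description of cells that share a library and a culture.

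**Figure D4:**
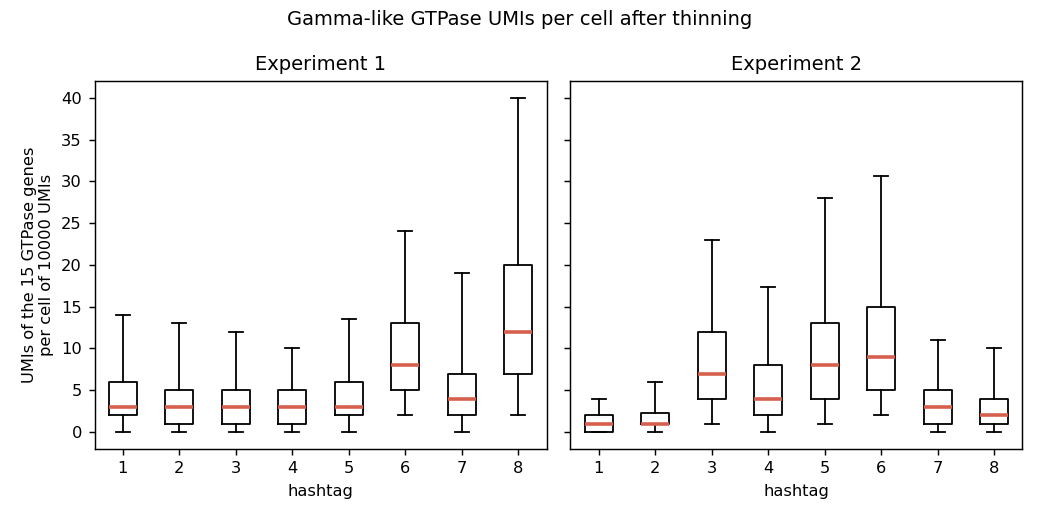
UMIs of the 15 gamma-like GTPase genes per cell after thinning to 10000 UMIs, by hashtag; red lines are medians, boxes the 25th to 75th percentiles and whiskers the 5th to 95th. In hashtag 8 of experiment 1 and hashtags 3, 5 and 6 of experiment 2 the whole box is shifted upward, with medians of 12, 7, 8 and 9 UMIs.

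Nearly the same hashtags stood out among cells with under 10 UMIs of every other-lineage marker list, the dendritic list included. These cells, called cells without markers of another lineage, can still hold some such UMIs. The limit was not scaled to depth, so shallower cells pass it more easily. Of the cells of hashtags 1 to 8 of experiment 2, 35.5%, 50.6%, 22.3%, 36.3%, 22.4%, 28.3%, 61.8% and 52.3% remained, with the smallest shares in hashtags 3, 5 and 6. In experiment 1, 37.96% (hashtag 6) to 74.96% (hashtag 7) remained. In these 4778 cells of experiment 1 the GTPases summed to 425, 390.0, 349.9, 344, 422, 912, 564 and 1359.8 CPM in hashtags 1 to 8. In the 3164 such cells of experiment 2 they summed to 168, 185, 957, 657, 966, 938, 405 and 298 CPM, so hashtags 3, 5 and 6 lay together at the top and hashtag 6 no longer led. The type I-like core of those cells was highest in hashtag 8 of experiment 1, at 189 CPM, and in hashtag 5 of experiment 2, at 197 CPM against 153 CPM in hashtag 6. Past 2-fold were 33 of 47 members in experiment 1 and 40 of 46 in experiment 2, counted in these cells alone, against 11.8% and 20.0% of all genes. Among cells of 1 stage, those with both Kit and Il2ra, the GTPase sums in experiment 1 were 371 to 485 CPM in hashtags 1 to 5 and 7, 842 CPM in hashtag 6 and 1125 CPM in hashtag 8. In experiment 2 only 4 hashtags had 50 such cells, and their sums were 198 CPM in hashtag 2, 778 CPM in hashtag 3, 575 CPM [513 to 644] in hashtag 4 and 511 CPM [472 to 553] in hashtag 7, so the last 2 overlapped. Among cells with Bcl11b, a gene of T-lineage commitment, only hashtags 3 to 7 of experiment 1 had 50 such cells. Hashtag 6 was highest, at 1365 CPM, and hashtags 3 and 4 were lowest, at 389 and 377 CPM. Between them, hashtag 5 at 756 CPM [699 to 816] and hashtag 7 at 678 CPM [617 to 743] overlapped. In experiment 2 the Bcl11b cells of hashtags 2, 3, 4, 7 and 8 were at 298, 1439, 689, 584 and 444 CPM. Among cells of experiment 1 with Kit but no Il2ra UMI, hashtag 7, at 653 CPM, was above hashtags 1 to 5, at 364 to 517 CPM.

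Cells with stromal markers were present although the cultures were sorted as CD45+, and they had high levels of the GTPase and type I-like transcripts. In experiment 2 the 219 such cells, with a median of 49434 UMIs, had 1876 CPM of the GTPases and 728 CPM of the type I-like core, against 480.1 and 92.0 CPM in cells without markers of another lineage. They too differed by hashtag: the GTPases summed to 375, 517, 2368, 3103, 2689, 2669.8, 2392 and 1222 CPM in the stromal-marker cells of hashtags 1 to 8, which number 28, 39, 26, 24, 28, 48, 7 and 19. The type I-like core in them was at 185, 222, 842, 1522, 920.3, 1026, 896 and 273 CPM. Hashtags 1 and 2 were thus lowest and hashtags 3 to 6 high for both sums, while hashtag 7 was high on the strength of 7 cells. In cells without markers of another lineage, hashtags 1 and 2 were lowest for the GTPases only. The type I-like core of those cells was lowest in hashtags 7 and 8, at 48.8 and 48.2 CPM, with 59.1 and 54.4 CPM in hashtags 1 and 2. Without these cells 41 of 46 members were past 2-fold in experiment 2, against 16.1% of all genes. Whether a stromal-marker barcode is 1 stromal cell or a stromal cell together with a progenitor was not tested.

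**Figure D5:**
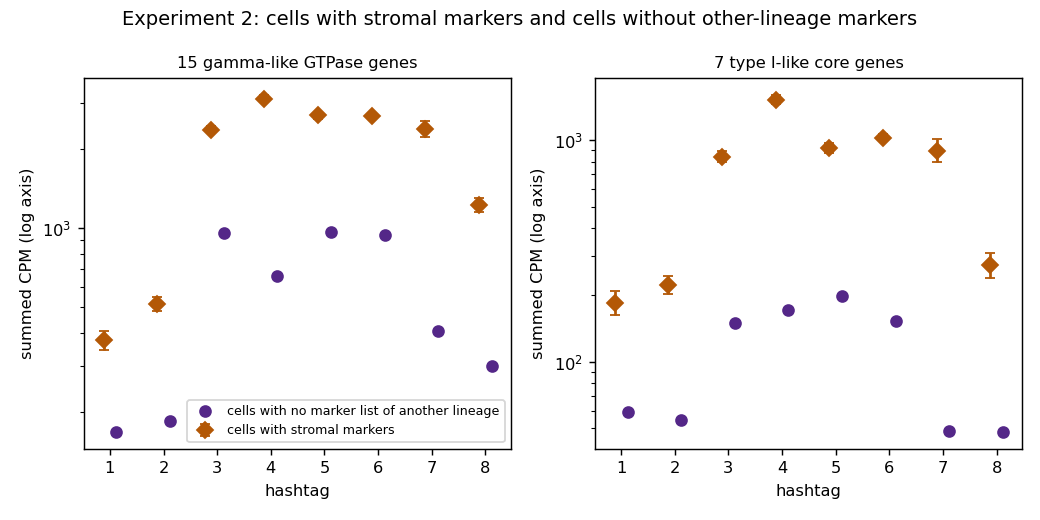
Summed CPM of the 15 GTPase genes (left) and the 7 type I-like core genes (right) in experiment 2, by hashtag, in the 219 cells with stromal markers (orange diamonds, exact 95% Poisson intervals) and the 3164 cells without markers of another lineage (purple circles), on log axes. Both kinds of cells are lowest in hashtags 1 and 2 for the GTPases, and the stromal-marker cells lie above the others in every hashtag.

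Between the experiments most members differed little in total. Over all called cells, 1 of 48 assessed members was at least 2-fold higher in experiment 2 (against 1.86% of 8770 genes) and none was at least 2-fold lower (against 0.342%). The member was Ifit1 (2.49 and then 10.1 CPM), 4.08-fold higher [3.72 to 4.49], and it was not past 2-fold once the cells with stromal markers were left out. The ratios of the 48 members ran from 0.657 for Tap2 to 4.08, with a median of 1.02 against 0.899 over all genes. Gbp2 was 1.27-fold higher [1.24 to 1.30] and Iigp1, at 37.3 and then 61.0 CPM, was 1.63-fold higher [1.59 to 1.68]. Without hashtag 8 of experiment 1, 3 assessed members were past 2-fold: Iigp1, Ifit1 and Zbp1. Culture time, library and the mix of cultures cannot be told apart in this comparison.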

How the data were processed

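The deposited files hold whole-number UMI counts per gene and cell barcode, and hashtag counts per barcode, made by the authors from 3′ libraries with Cell Ranger 3.0.0 against mm10 (GRCm38), per the submitters' processing notes. All else was computed here from those deposited counts. A barcode was kept if it had 500 or more detected genes and less than 10% of its UMIs from mitochondrial genes, and a hashtag was called where its count was at least 50 and at least 3 times the next one, which also removes doublets between hashtags. This called 94.3% and 81.6% of the kept barcodes. Doublets within a hashtag were not searched for, so no doublet caller was run. UMIs were summed per hashtag and expressed as CPM, not scaled to transcript length since 3′ ends were counted.

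The 54 members, the lists and the patterns looked for were chosen with earlier results of these data known. Given hashtag by hashtag are the 10 members with the largest highest-to-lowest ratio and the 5 with the highest mean in each experiment, and the rest are given by range. Bst2, Usp18 and the sums were described as well after their values were seen. Cells with at least 10 UMIs of a marker list were set apart as carrying that lineage's markers. Cells below that limit on every other-lineage list are called cells without markers of another lineage, though they can hold some such UMIs. No test between conditions was possible because the labels tie no hashtag to a condition. Runx1 and Runx3 levels were not used to assign one. A gene of the pathway list is not reported here.

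Alternatives were Seurat 5.3.0 HTODemux calls, stricter cell filters, edgeR 4.0.16 TMM and DESeq2 1.42.0 size factors applied to the counts, thinning of each cell to 3000 UMIs, a mean over cells, other CPM minimums, and each hashtag, the cells with other lineage markers, the deepest 5% of cells or the cells with stromal markers left out. Python 3.11.15, numpy 2.4.6, scipy 1.17.1 and pandas 2.3.3 were used, and the scripts were tested on simulated data. Sequences and coordinates are RefSeq's for GRCm38.p6.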

Additional observations from a re-analysis of the deposited data

Results flagged for a closer look

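Of 38 values examined over the 8 hashtags of an experiment, 8 had 1 hashtag far from the other 7. Chance flags about 1 in 20 unselected groups, but that rate is no reference for this count. The values are those of members picked by largest ratio or highest mean, and of sums that share genes with them. The hashtags are also cultures of different, unassigned conditions and not replicates of 1 group, so a lone high hashtag can be its condition. In experiment 1 all 7 such values were high in hashtag 8. Cxcl10 stood at 53.1 CPM there, with the next hashtag at 15.6 CPM. Iigp1 stood at 177 CPM, with the next at 76.4 CPM, and Gbp2 at 239.8 CPM, with the next at 119 CPM. Gbp5 stood at 47.4 CPM over 23.3 CPM, Zbp1 at 44.3 CPM over 16.9 CPM, and Gbp9 at 20.8 CPM over 11.7 CPM. The summed type I-like core stood at 173 CPM, with the next hashtag at 107 CPM. In experiment 2 Cxcl10 stood at 50.4 CPM in hashtag 6, with the next hashtag at 18.7 CPM.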

How the results depend on the processing

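No paired analysis was possible because no hashtag is tied to a replicate in the labels. A highest-to-lowest ratio has no direction to lose, so only sizes and the leading hashtag can move. The highest hashtag was the same under every alternative run for 15 of 16 results in experiment 1 and for 6 of 16 in experiment 2. With at least 20 CPM required, 16 of 28 members were past 2-fold between hashtags in experiment 1 (6.47% of all genes) and 25 of 30 in experiment 2 (11.2%). Leaving out each hashtag in turn gave 24 to 31 and 40 to 44 members. The count of members at least 2-fold higher in experiment 2 was 0 with 20 CPM required, with stricter cell filters, and without the cells with other lineage markers, the deepest cells or, an alternative chosen after seeing the data, the cells with stromal markers. It was 5 with no CPM minimum and 1 to 3 with a hashtag left out, and 0 members were lower with any hashtag left out.

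The gamma-like core's span in experiment 1 was 1.80-fold with HTODemux calls, 1.81-fold with TMM, 1.82-fold with DESeq2 size factors, 1.85-fold after thinning, 1.86-fold as a mean over cells, 1.68-fold without cells with other lineage markers and 1.52-fold to 1.77-fold with a hashtag left out. In experiment 2 it was 2.25-fold with HTODemux calls, 2.01-fold with stricter filters, 2.17-fold with either TMM or DESeq2, 2.06-fold after thinning, 2.04-fold without the deepest cells, 1.96-fold without cells with stromal markers and 2.03-fold to 2.09-fold with a hashtag left out. The type I-like core's span in experiment 1 was 2.89-fold with stricter filters, 3.94-fold after thinning and 2.11-fold to 3.44-fold with a hashtag left out. In experiment 2 it was 4.46-fold after thinning, 4.10-fold without cells with other lineage markers, 3.65-fold without cells with stromal markers and 3.75-fold to 4.77-fold with a hashtag left out. The span of the chromosome 5 to chromosome 3 Gbp ratio in experiment 1 was 5.29-fold after thinning and 4.42-fold to 4.63-fold with a hashtag left out. In experiment 2 it was 6.71-fold with HTODemux calls, 7.93-fold after thinning, 6.78-fold as a mean over cells, 7.86-fold without cells with other lineage markers, 6.87-fold without the deepest cells, 6.85-fold without cells with stromal markers and 3.45-fold to 5.83-fold with a hashtag left out. The cause of these shifts was not tested.

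Among single members in experiment 2, Gbp4 moved to 3.43-fold without hashtag 1, Iigp1 to 116.4-fold with HTODemux calls and 94.7-fold without cells with other lineage markers, and Ifit3 to 20.9-fold with HTODemux calls and 9.15-fold without hashtag 6. Low counts limit Ifit3, Mx1 and Cxcl9 most, which had under 10 UMIs in some hashtag.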
